A study of Mus musculus with 26 samples.

Results

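Ribosome footprints in the caudate putamen of mice with a kinase-dead LRRK2 transgene were compared with those of non-transgenic littermates. The members are all 8576 transcripts of the deposited table on GS/DA LRRK2 TG mice, out of 26713 rows in 3 such tables. The value taken for each is the log2 ratio of the GS/DA footprinting mean to the control footprinting mean, called its change below. RNA-seq and translation efficiency were left aside. Only group means are deposited, with no SD, so the ratios themselves carry no error.

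The study profiled translation in striatum from several LRRK2 mouse models, and this comparison sets a G2019S transgene whose kinase cannot work against no transgene. Mice with the kinase-active G2019S transgene are not part of it, so it does not measure a remainder of their response. Of 26 samples, 5 belong here: 3 footprinting samples of non-TG control mice and 2 of G2019S/D1994A LRRK2 TG mice. All were labelled striatum of C57BL/6 mice aged 3 months. Each sample was a pool of caudate putamen tissue from 3 mice of both sexes.

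The GS/DA transgene came from 1 line and was switched on by a CaMKII-tTA driver, which is active mainly in forebrain neurons, once doxycycline was withdrawn at weaning. The non-TG littermates carried no transgene. Effects of the mutant protein, of its excess, of the driver and of the insertion site therefore cannot be told apart.

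LRRK2 is a large protein with both a kinase and a GTPase domain. The G2019S substitution, found in familial Parkinson's disease, raises kinase activity, and the added D1994A substitution removes the aspartate needed for catalysis. A footprint is a piece of mRNA shielded from nuclease by a ribosome, so its abundance follows both how much mRNA there is and how densely it is translated. The caudate putamen consists mostly of GABAergic spiny projection neurons of the direct and indirect pathways, and glutamatergic projection neurons of the kind found in cortex are not resident there.

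Lrrk2 had the highest change of the table, 2.17. Of 10 markers of cortical projection neurons 7 had a change above 0, with Tbr1 and Slc17a7 above 1, and 3 had one below 0, among them Nrgn (-0.22), the most abundant, while the list's summed level had a log2 change of 0.034. Of the immediate early genes 17 of 21 had a change below 0, Nr4a1 and Egr4 among them, and of the markers that all spiny neurons share 22 of 22 did. Over the whole table, these genes included, few transcripts had a large change. The SD over transcripts was 0.162, and 99.2% of transcripts lay within 0.5 on the log2 scale. The median change was -0.01, and of all transcripts 4075 had a change above 0 and 4501 had one below 0. The libraries had been normalised to a common level, which by itself brings the median near 0. The median and this split therefore cannot show a shift shared by all transcripts.

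Because the means are averages of whole read numbers scaled by a size factor per library, the reads of single libraries could be worked out from them. Each group's mean resolved into 2 libraries. In the control group 98.1% of transcripts gave a single pair of whole numbers and in the GS/DA group 98.9%, against 0.326% and 1.46% when the means were shifted by a constant. So the control mean of this table holds 2 libraries, although 3 control samples are labelled.

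The control footprinting mean in the table on G2019S LRRK2 mice (GS LRRK2 TG) was found to be an average over 5 libraries: both control libraries above, both GS/DA libraries and 1 further library. After the reads of the 4 known libraries were subtracted, 8391 of 8391 transcripts left a whole number within 0.001, and 0% did so when the means were shifted by a constant. The files do not say which sample the further library is; a non-TG control sample is the label that would otherwise have no library. It is given below beside the control libraries and was not put into the deposited ratio.

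With both tables, 8570 of the 8576 transcripts had a resolved read number in every library. The control libraries held 11340880 and 18422006 reads in these transcripts, the GS/DA libraries 9063469 and 21329081, and the further library 8948064. Each group thus had a shallower and a deeper library, and they are named so here, since the means do not tell which labelled replicate is which. The 6 transcripts without one had a median control mean of 117842, and the resolved ones held 94.9% of control and 94.8% of GS/DA footprints.

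Libraries of unlike depth differed more, within a genotype or across, than libraries of like depth from different genotypes. The SD over transcripts of the log2 ratio between both control libraries was 0.351, and between both GS/DA libraries it was 0.358. These differences were shared, with a correlation of 0.823 across transcripts, which are not independent replicates. The change from the shallower control to the shallower GS/DA library had an SD of 0.173 and that between the deeper libraries 0.193, whereas crossing the libraries gave 0.361 and 0.379. The further library was nearer to the shallower control library (SD 0.192) than to the deeper one (0.359). Libraries of like depth are called a matched pair below. No label gives them a common batch.

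Tuba3a shows how far such a difference could go. This alpha tubulin had 3.76 normalised footprints in the shallower and 23899 in the deeper control library, 4.75 in the further library, and 1.56 and 26983 in the GS/DA libraries. Both deeper libraries were high and the other 3 near 0, and the change of 0.17 comes from the deeper pair. In all, 23 transcripts differed by 1.5 or more between libraries of a group, 21 of them in the same direction in both groups.

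**Figure D1:**
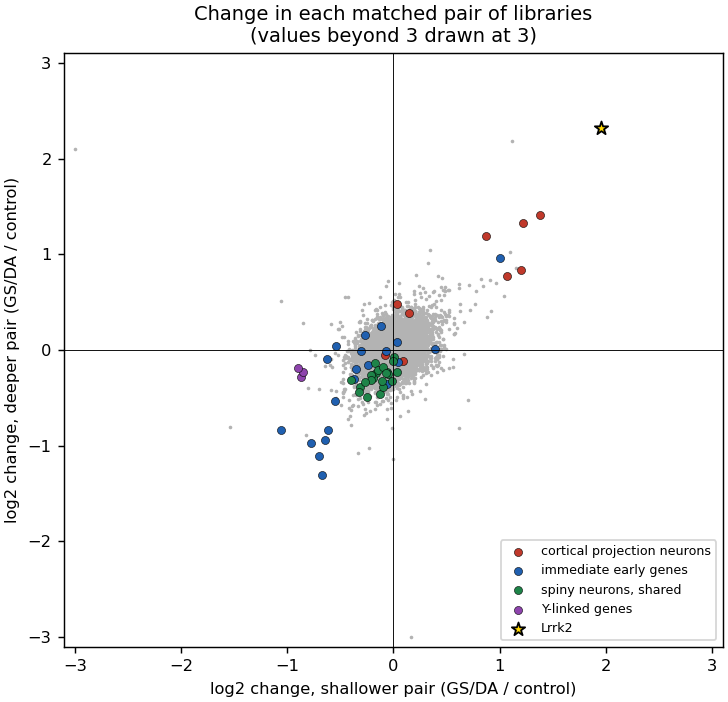
Change in each of 8570 transcripts within the pair of shallower libraries (x axis, log2) and the pair of deeper libraries (y axis, log2), 1 point a transcript. Lrrk2 stands apart at 1.95 and 2.32, and Ttr and Gh lie at the left and lower edges, where values beyond -3 are drawn at -3.

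A change of at least 0.5 was reached by 42 transcripts (0.49% of the table), and a change of -0.5 or less by 28 (0.326%). Both GS/DA libraries lay above both control libraries for 36 of the 42 and below them for 23 of the 28, which the choice by a mean of these same libraries largely fixes. Over all resolved transcripts it held for 1036 above (12.1%) and 1055 below (12.3%). With the further library counted as well, it held for 34 of the 42 and 23 of the 28, against 763 transcripts above (8.9%) and 754 below (8.8%) overall. A change beyond 0.5 in both matched pairs was found in 21 transcripts on the high side and 10 on the low side. Of the 42, all were positive in both pairs, and of the 28, 26 were negative in both, which follows largely from the choice as well.

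Without a pairing of libraries, no transcript passed a test over the 4 of them: limma called 0 of 8570 (0%) at a Benjamini-Hochberg threshold of 0.05, and 146 had an unadjusted p under 0.05, 88 of them higher in GS/DA and 58 lower. The smallest adjusted p, that of Lrrk2, was 0.705. With the matched pairs as a block limma called 196 transcripts. These pairs were chosen by likeness in the data, so that count is no independent test. With the further library among the controls limma called 1 transcript (0.0117%), Lrrk2, at an adjusted p of 0.0409. That fit had 312 transcripts at an unadjusted p under 0.05, 172 higher and 140 lower. With 1 of the 4 libraries left out, which leaves an arm of 1 library, the adjusted p of Lrrk2 was between 5.06e-23 and 4.18e-05, but these fits called from 2 to 45 transcripts and do not set Lrrk2 apart. The values of the genes below are a description.

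These counts depend on single libraries. The count of 42, or number of transcripts with a change of at least 0.5, was 137 without the deeper control library and 120 without the shallower GS/DA library. The count of 28, at most -0.5, was 73 and 66 without the shallower and the deeper control library, and 116 and 111 without the shallower and the deeper GS/DA library. The count of 0 past the limma threshold was 26 and 45 without the shallower and the deeper control library, and 16 and 2 without the shallower and the deeper GS/DA library, where the lone library is assumed to vary like the others.

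**Figure D2:**
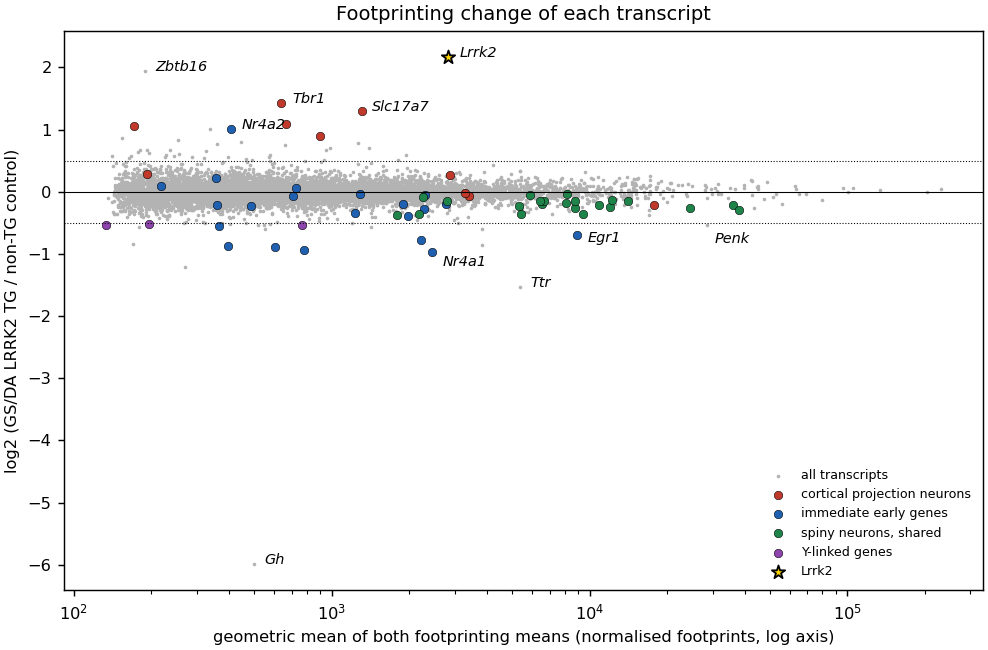
Change in footprinting (y axis, log2, GS/DA LRRK2 TG over non-TG control) against the geometric mean of normalised footprints over both groups (x axis, log scale) for 8576 transcripts, with dotted lines at 0.5 and -0.5. Lrrk2 at 2.17 and Gh at -5.99 are the ends of the range.

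Lrrk2 (uc007xhz.1) lies on chromosome 15 of mm9, from 91503606 to 91646551 on the plus strand. It had 1224 and 1445 normalised footprints in the control libraries, 1214 in the further library, and 4766 and 7267 in the GS/DA libraries. Both GS/DA values stood above the other 3, and the deeper GS/DA library was the higher of them. The change was 1.95 in the shallower pair, 2.32 in the deeper pair and 2.22 against all 3 other libraries. The reads behind these values numbered 977 and 1877 in the control libraries, 766 in the further library, and 3061 and 10954 in the GS/DA libraries.

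The species of the transgene's sequence is not stated, and footprints of the transgene and of the resident gene cannot be told apart. Genes around Lrrk2 did not share its change. The 24 other transcripts of the table within 3 Mb of it had changes from -0.29 (Lmf2) to 0.23 (Arsa). Slc2a13, a myo-inositol transporter and the nearest listed gene on one side, had a change of 0.05, and Cntn1, a neuronal adhesion protein and the nearest on the other, had 0.10.

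In the table on GS LRRK2 TG mice, normalised on its own, the Lrrk2 mean was 5186 in GS and 2524 in the control column, which holds the GS/DA libraries too. Against the 3 libraries without them, at 1026 in that table's scale, the GS change was 2.34. GS changes given below are made in the same way. Their controls are these 3 libraries. Both control libraries of the GS/DA changes are among them, but the further library is not in the GS/DA changes. A high or low value in a shared control library moves the GS and the GS/DA change the same way. A like sign in both is therefore no independent agreement. The values only stand side by side, and their sizes are not compared.

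LRRK2 and its partners, a list with its reported substrates among the Rab GTPases and with 14-3-3 proteins, had 19 of 25 symbols in the table and a median of -0.01. Apart from Lrrk2 its members lay at 0.24 or less. Rab3b, a synaptic vesicle Rab, had a change of 0.24, and Ywhag, a 14-3-3 protein, 0.23. Parkinson's disease genes, 17 of 20 listed, had a median of 0.10 with 15 of 17 above 0. Vps13c, a lipid transport protein, was the highest at 0.38 with 423 and 664 normalised footprints in the control, 359.7 in the further and 528 and 889 in the GS/DA libraries. Its groups overlapped.

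Markers of cortical projection neurons had the highest median of the gene lists. Of 19 symbols 10 were listed, with a median change of 0.59 against -0.01 over all transcripts, and 5 of them reached 0.5 (0.49% of all transcripts). For 7 of the 10, both GS/DA libraries were above both control libraries (12.1% of all transcripts), and for 7 also above the further library (8.9%). The median was 0.51 in the shallower and 0.63 in the deeper pair, and 0.35 without the deeper GS/DA library. It was 0.13 over the 6 members that pass the stricter limit on low means, which leaves out Tbr1, Cck, Neurod6 and Cux2.

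Tbr1, a transcription factor of deep-layer cortical neurons, had 289 and 491 normalised footprints in the control libraries, 211 in the further library, and 768 and 1321 in the GS/DA libraries. The groups were apart, and its change was 1.42. Slc17a7, the vesicular glutamate transporter of cortical neurons, had 673 and 994 in the control, 518 in the further, and 1577 and 2516 in the GS/DA libraries, a change of 1.30. Here too the lower GS/DA value exceeded the highest of the others. In the matched pairs the change was 1.38 and 1.41 for Tbr1 and 1.22 and 1.33 for Slc17a7.

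Cck, a neuropeptide, had 343 and 571 normalised footprints in the control libraries, 284 in the further library, and 635 and 1317 in the GS/DA libraries. Neurod6, a transcription factor of pyramidal neurons, had 93.9 and 145 in the control, 72.9 in the further, and 229 and 267 in the GS/DA libraries. The changes were 1.09 for Cck and 1.05 for Neurod6, again without overlap. Nptx1, a pentraxin of excitatory synapses, had 472 and 847 in the control, 567 in the further, and 1001 and 1450.2 in the GS/DA libraries, a change of 0.89.

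For Tbr1, Slc17a7, Cck, Neurod6 and Nptx1 the deeper library of each genotype was the higher one. The rest of the list was closer to 0. Cux2 had a change of 0.28, Mef2c of 0.27, Tle4 of -0.01 and Lmo4 of -0.07. Nrgn, a calmodulin-binding protein of dendrites and also 1 of the postsynaptic scaffolds listed, was by far the most abundant of the list and was lower in GS/DA, at 21334 and 17101 in the control, 20186 in the further, and 18676 and 14313 in the GS/DA libraries (change -0.22).

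Since Nrgn dominates, the list's summed level barely differed: 32624 and 29944 normalised footprints in the control libraries, 31659 in the further library, and 32637 and 31409.5 in the GS/DA libraries. Emx1, Fezf2, Rorb and Neurod2 were not listed. Whether more cells of this kind or more mRNA in each stood behind these values cannot be told apart in tissue samples. Denser translation was not tested either, since RNA-seq was left aside, and the amount of cortex in each dissection was not tested. In GS the same genes had changes of 0.69 (Tbr1), 0.54 (Slc17a7), 0.46 (Cck), 0.31 (Neurod6) and 0.37 (Nptx1), and the list's median was 0.32.

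**Figure D3:**
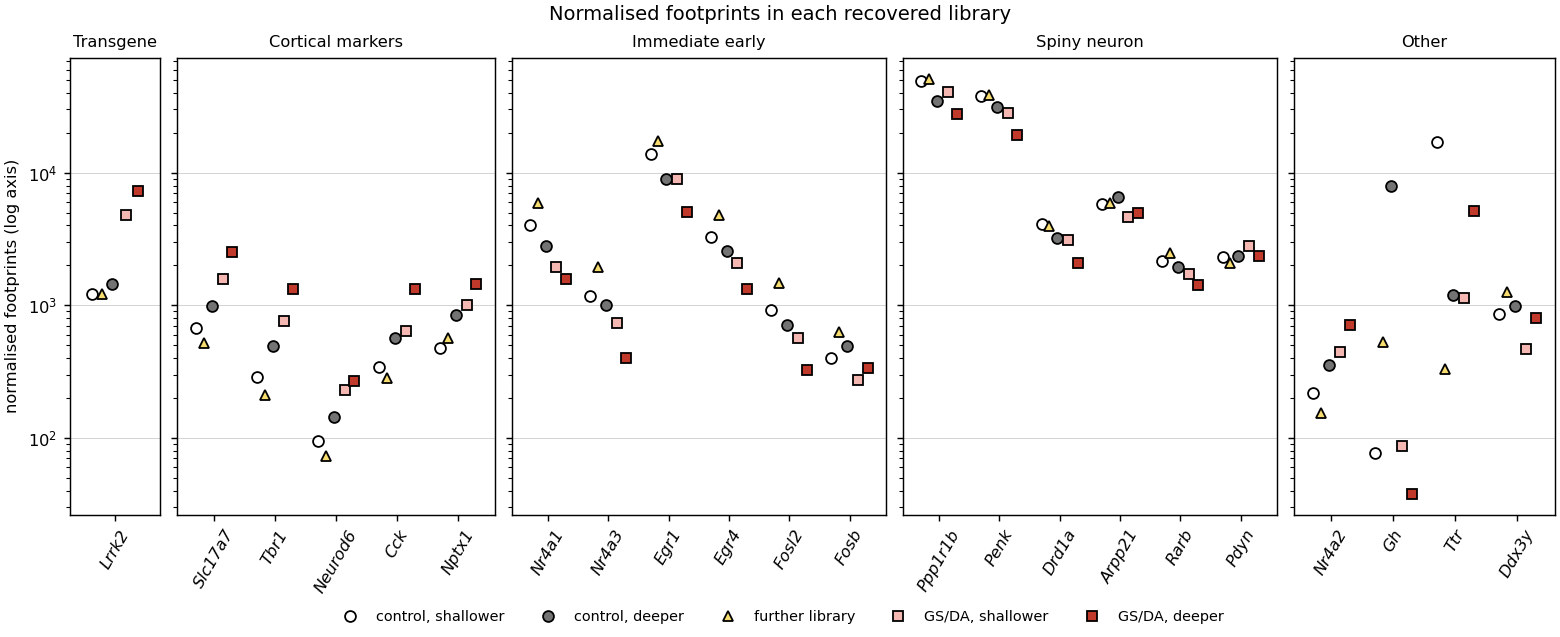
Normalised footprints (y axis, log scale) of selected genes in the 2 control libraries, the further library and the 2 GS/DA libraries, 1 symbol a library. Lrrk2 and the cortical markers shown, all with a change past 0.5, are highest in the GS/DA libraries. The immediate early genes of their panel, all at -0.5 or less, are lowest in them, with Egr1 as an exception. For Egr1 the shallower GS/DA library lies just above the deeper control library. Other cortical markers, such as Nrgn, which was lower, and Fos, Jun, Arc and Npas4 are not drawn. Nr4a2, an immediate early gene that was higher, is drawn in a panel of other genes.

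Among transcripts with both means of at least 500, others were high as well. Atp2b4, a plasma membrane calcium pump, had 812 and 1114 normalised footprints in the control libraries, 898 in the further library, and 1448 and 1873 in the GS/DA libraries. Slc8a1, a sodium-calcium exchanger, had 426 and 591 in the control, 480.1 in the further, and 772 and 947 in the GS/DA libraries. Both were higher in each GS/DA library than in any other, with changes of 0.79 and 0.76. Pde1a, a phosphodiesterase switched on by calcium and calmodulin, had a change of 0.70, but its shallower GS/DA library (1359) lay just under the deeper control library (1360.0).

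Islr2, a membrane protein with leucine-rich repeats, had 715 and 831 normalised footprints in the control libraries, 599 in the further library, and 1232 and 1280.3 in the GS/DA libraries, a change of 0.70. Sez6l, a membrane protein of neurons, had 713 and 805 in the control, 683 in the further, and 1101 and 1303 in the GS/DA libraries, a change of 0.66. For both genes the GS/DA libraries lay well clear of the rest. The GS/DA libraries were above the other 3 as well for Ppm1e, a protein phosphatase (0.51), Efhd2, a calcium-binding protein (0.47), Slit1, an axon guidance ligand (0.46), and Gpr56, an adhesion receptor (0.46). Itpk1, an inositol phosphate kinase, was at 0.49 and its further library value, 765, lay above the shallower GS/DA library at 763.

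Olfm1, a secreted glycoprotein of neurons, and Serpini1, a protease inhibitor of axons, overlapped between the genotypes. Olfm1 had 1294 and 1872 normalised footprints in the control libraries, 1274 in the further library, and 1856 and 2892 in the GS/DA libraries, a change of 0.58. Serpini1 had 1233 and 1792 in the control, 1069.6 in the further, and 1456 and 2846 in the GS/DA libraries. Its change of 0.51 was 0.24 in the shallower and 0.66 in the deeper pair. It was -0.055 without the deeper GS/DA library, where the shallower GS/DA library stands against both control libraries.

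Zbtb16, a zinc finger repressor that glucocorticoids induce, had 76.4 and 116 normalised footprints in the control libraries, 108 in the further library, and 178 and 559.9 in the GS/DA libraries. Both GS/DA libraries were higher than the others, the deeper one by far, and the change was 1.94. It was 1.12 in the shallower and 2.18 in the deeper pair, and 1.82 in GS. The list it belongs to, clock output and glucocorticoid-responsive genes, had 20 of 24 listed, Zbtb16 included, and a median of -0.04, which was 0.087 without the deeper control library, and 0.095 and -0.12 without the shallower and the deeper GS/DA library. Fkbp5, also induced by glucocorticoids, had a change of 0.28, and Per1, a clock gene, had 2849.6 and 2189 in the control, 2928 in the further, and 2051 and 1614 in the GS/DA libraries, a change of -0.46.

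Immediate early genes, which neurons transcribe within minutes of activity, were mostly lower. Of 25 symbols 21 were listed, 17 had a change below 0, and the median was -0.24 against -0.01 over all transcripts. A change of -0.5 or less was found in 7 (0.326% of all transcripts) and one of at least 0.5 in 1, Nr4a2 (0.49%). For 10 of the 21 both GS/DA libraries were below both control libraries (12.3% of all transcripts), and for 2 above them (12.1%). With the further library 10 were below (8.8%) and 1 above (8.9%). The median was -0.35 in the shallower and -0.15 in the deeper pair, and -0.44 against all 3 other libraries. With 1 library left out it was between -0.37, without the shallower GS/DA library, and -0.18, without the shallower control library.

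Nr4a1, an orphan nuclear receptor, had 4058 and 2812 normalised footprints in the control libraries, 5858 in the further library, and 1939 and 1572 in the GS/DA libraries. Its relative Nr4a3 had 1167 and 997 in the control, 1933 in the further, and 730.3 and 397 in the GS/DA libraries. In both receptors each GS/DA library was lower than the other 3 and the further library was the highest. The changes were -0.97 for Nr4a1 and -0.94 for Nr4a3, and in GS -1.11 and -0.79. The GS values have the further library among their controls. With it the GS/DA changes were -1.27 and -1.28.

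Of the zinc finger factors of the Egr family, Egr2 and Egr4 had the same order of libraries as Nr4a1. Egr2 had 645 and 434 normalised footprints in the control libraries, 1087 in the further library, and 372 and 216 in the GS/DA libraries, a change of -0.88. Egr4 had 3257 and 2556 in the control, 4773 in the further, and 2079 and 1330.1 in the GS/DA libraries, a change of -0.77. Egr1 was the most abundant, with 13811 and 8996 in the control, 17231 in the further, and 9006 and 5044 in the GS/DA libraries. Its shallower GS/DA library lay just above the deeper control library, and its change was -0.70. In GS the changes were -0.85 for Egr2, -0.85 for Egr4 and -0.63 for Egr1. With the further library among the controls, as for GS, the GS/DA changes were -1.30, -1.05 and -0.93.

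Among the Fos and Jun subunits of the AP-1 factor, Fosl2 had 929 and 712 normalised footprints in the control libraries, 1467 in the further library, and 567 and 324 in the GS/DA libraries. Fosb had 401 and 489 in the control, 624 in the further, and 271 and 334 in the GS/DA libraries. Both were lower in each GS/DA library, with changes of -0.88 and -0.56. Junb was at -0.39, Fos at -0.24 with overlapping groups, and Jun at 0.06.

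The synaptic regulator Arc had a change of -0.19 and overlapping groups, and Npas4, a factor specific to neuronal activity, one of 0.08. The list's summed level was 43242 and 33941.5 normalised footprints in the control libraries, 56665 in the further library, and 31145.5 and 25391 in the GS/DA libraries. So both GS/DA libraries were lowest, and libraries of 1 genotype differed as well. The time of day and the handling of the mice are not labelled, and their part was not tested.

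Nr4a2, a nuclear receptor of the same family that deep cortical and claustral neurons also express, went the other way. It had 217 and 357 normalised footprints in the control libraries, 154 in the further library, and 445 and 705 in the GS/DA libraries, a change of 1.00. The order of its libraries was that of Tbr1, from the further library at the bottom to the deeper GS/DA library at the top. In GS its change was -0.14, beside 0.69 for Tbr1.

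Promoter windows of immediate early genes, which span the start of each gene, were read from RefSeq (GRCm38.p6), with 17 of the 21 genes matched. They are shown because most of the genes of this list, though not all, had a change below 0. The cAMP response element TGACGTCA, searched on both strands, was in the window of 1 of 17 genes (5.88%), against 2.03% of 27025 genes and 3.97% of the 6116 matched genes of the table. That gene was Dusp1, a MAP kinase phosphatase with a change of -0.08. The serum response element was in 1 of 17, against 1.81% of all genes and 1.64% of those of the table, and that was Egr2 (change -0.88), at more than one place. It was searched on both strands too, and the elements did not overlap. Capitals mark the element, and a window without these letters says nothing of the factor.
Dusp1, chr17:26508597-26508626, minus strand: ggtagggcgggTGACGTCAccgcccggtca
Egr2, chr10:67537484-67537513, plus strand: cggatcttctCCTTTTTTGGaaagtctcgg
Egr2, chr10:67537787-67537816, plus strand: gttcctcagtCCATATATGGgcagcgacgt

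Markers of spiny projection neurons, the principal cells of the labelled tissue, were nearly all listed, and most were somewhat lower in GS/DA. Of the 24 markers that both pathways share 22 were listed, and 22 of 22 had a change below 0, with a median of -0.20. In 12 of the 22, both GS/DA libraries were below both control libraries (12.3% of all transcripts), and in 0 above them. The counts were the same with the further library (8.8% of all transcripts below). The median was -0.14 in the shallower and -0.28 in the deeper pair. It was -0.073 without the deeper and -0.31 without the shallower GS/DA library, and -0.13 without the shallower control library. In GS it was -0.20, beside -0.24 for GS/DA with the further library among the controls. The summed level was 268243 and 241269 normalised footprints in the control libraries, 271799 in the further library, and 239908 and 197992 in the GS/DA libraries, with Ppp1r1b as the most abundant gene.

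Ppp1r1b, which encodes the dopamine-regulated phosphatase inhibitor DARPP-32, had 49230.5 and 35017 normalised footprints in the control libraries, 51025 in the further library, and 40784 and 27779 in the GS/DA libraries. The groups overlapped, and the change was -0.30. Pde10a, a striatal phosphodiesterase, had 28444 and 24978 in the control, 26445 in the further, and 24529 and 20131 in the GS/DA libraries, a change of -0.26. Rarb, a retinoic acid receptor, had 2146 and 1941 in the control, 2488 in the further, and 1711 and 1428 in the GS/DA libraries, the lowest change of the list at -0.38. For Pde10a and Rarb each GS/DA library was below the other 3, as it was for Arpp21, a striatal phosphoprotein (-0.35).

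Of the direct pathway markers 10 of 12 were listed, with a median of -0.08, and of the indirect pathway markers 7 of 10, with a median of -0.19. In the shallower and the deeper pair the medians were 0.02 and -0.20 for the direct and -0.055 and -0.25 for the indirect pathway. The direct median was -0.20 without the shallower GS/DA library. The indirect median depended on each library: it was 0.033 and -0.29 without the shallower and the deeper control library, and -0.42 and 0.098 without the shallower and the deeper GS/DA library. Drd1a, the dopamine receptor of the direct pathway, had 4126 and 3208 normalised footprints in the control libraries, 3935 in the further library, and 3119 and 2066 in the GS/DA libraries. Penk, the enkephalin precursor of the indirect pathway, had 37568 and 31154 in the control, 38504 in the further, and 28382 and 19289 in the GS/DA libraries. Both were lowest in the GS/DA libraries, with changes of -0.50 and -0.53, and both had a larger size of change in the deeper pair (-0.63 and -0.69) than in the shallower (-0.40 and -0.40).

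The receptors that mark the indirect pathway differed less. Drd2, its dopamine receptor, had a change of -0.14, and Adora2a, an adenosine receptor, one of -0.19, both with overlap. Pdyn, the dynorphin precursor of the direct pathway, was slightly higher in GS/DA, at 2329 and 2335 normalised footprints in the control, 2098 in the further, and 2797 and 2357 in the GS/DA libraries (change 0.14). In GS the changes were -0.45 for Drd1a, -0.38 for Penk and 0.14 for Pdyn.

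Striatal interneurons and dopamine axons had 12 of 16 markers listed and a median of 0.01, which was -0.14 without the shallower and 0.15 without the deeper control library. Pvalb, the parvalbumin of fast-spiking interneurons, was the lowest at -0.40, with 519 and 1037 normalised footprints in the control, 732 in the further, and 543 and 638 in the GS/DA libraries. The groups overlapped, and the deeper control library was the highest. Calb2, the calretinin of another interneuron class, was the highest at 0.35 and overlapped too.

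Several other transcripts were lower in both GS/DA libraries. Rgs2, a regulator that ends G protein signals, had 4266 and 5188 normalised footprints in the control libraries, 5015 in the further library, and 3236 and 2999.8 in the GS/DA libraries. D4Wsu53e had 5734 and 4528 in the control, 5023 in the further, and 3245 and 2439 in the GS/DA libraries. Neither overlapped, and the changes were -0.60 and -0.85. Dusp14, a dual-specificity phosphatase (-0.56), Slc25a25, a mitochondrial ATP carrier (-0.50), and Pcf11, a factor of mRNA 3′ end formation (-0.48), were apart in the same way, whereas Midn (-0.47) overlapped.

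Ddit4l, an inhibitor of mTOR signalling, is in none of the gene lists and was picked after its values were seen. It had 452 and 367 normalised footprints in the control libraries, 555 in the further library, and 149 and 206 in the GS/DA libraries. Both GS/DA libraries were far below the rest. The change was -1.21, and in GS it was -1.22. With the further library among the controls, as for GS, the GS/DA change was -1.37.

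The most negative changes rested on single control libraries. Gh, growth hormone of the pituitary, also picked after its values were seen, had 76.4 and 7894 normalised footprints in the control libraries, 529 in the further library, and 87.2 and 37.8 in the GS/DA libraries. The deeper control library was by far the highest, with the further library next. The change of -5.99 was 0.17 in the shallower pair and -7.37 in the deeper. Ttr, the thyroxine carrier that choroid plexus makes in quantity, had 17056 and 1193 in the control, 333 in the further, and 1137 and 5162 in the GS/DA libraries. Here the shallower control and the deeper GS/DA library were high. The change of -1.53 was -3.90 in the shallower and 2.10 in the deeper pair, and it became 1.40 without the shallower control library.

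Y-linked genes were lower in both GS/DA libraries. Ddx3y, an RNA helicase, had 859 and 982 normalised footprints in the control libraries, 1268 in the further library, and 466 and 803 in the GS/DA libraries, a change of -0.54. Kdm5d, a histone demethylase, had 154 and 167 in the control, 165 in the further, and 81.0 and 141 in the GS/DA libraries, a change of -0.54. Uty followed at -0.51. The shallower GS/DA library was the lowest in each, and the 3 listed of 6 had a median of -0.87 in the shallower and -0.23 in the deeper pair. Without the deeper GS/DA library it was -0.99 and without the shallower one -0.19. Pools held males and females in unequal numbers, and the part of sex in the other results was not tested.

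**Figure D4:**
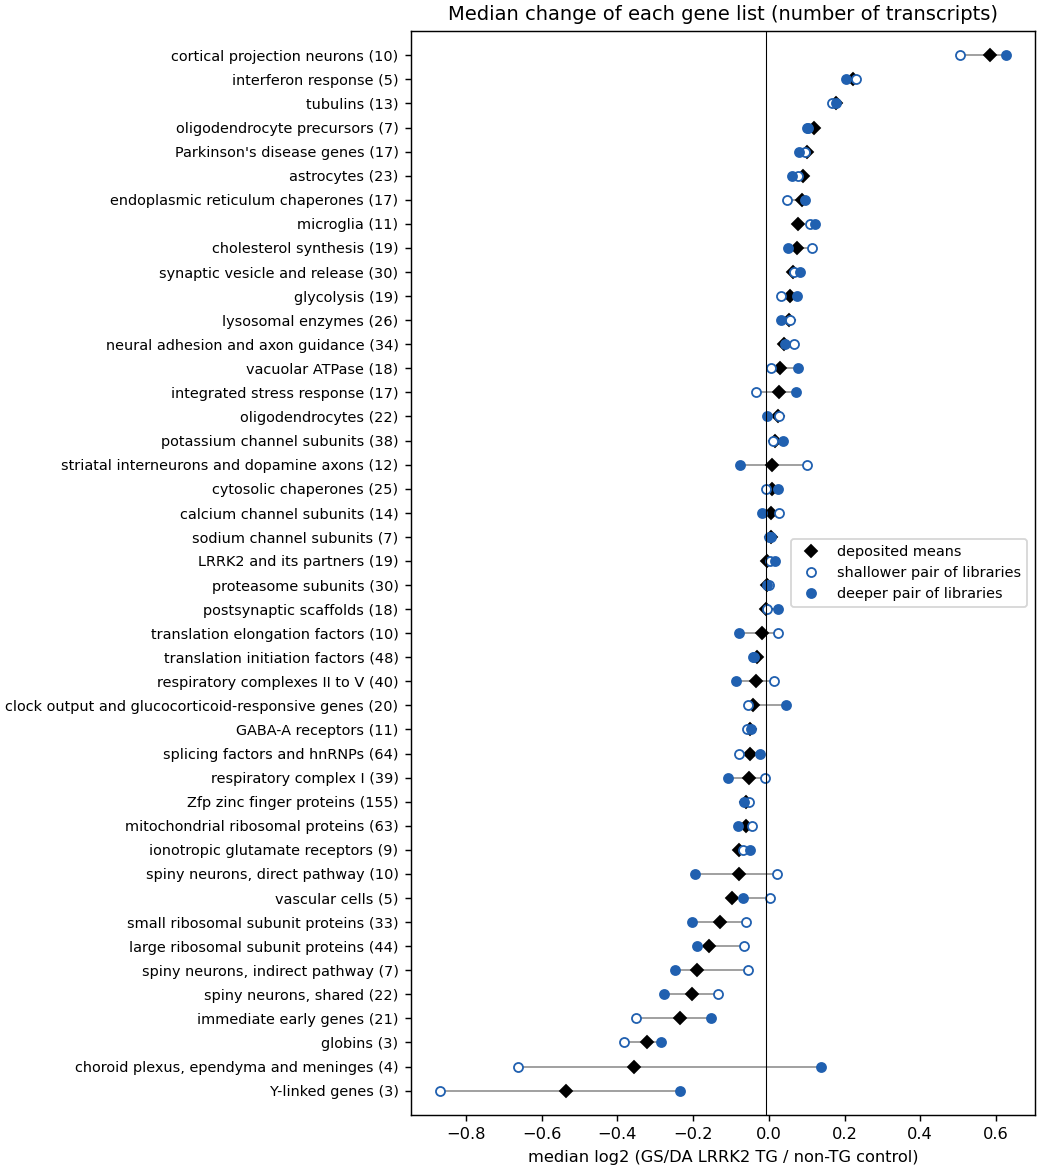
Median change in footprinting (x axis, log2) of each gene list, as a diamond for the deposited means, an open circle for the shallower and a filled circle for the deeper pair of libraries. Cortical projection neuron markers (median 0.59) and tubulins (0.18) lie on the high side, and immediate early genes (-0.24), shared spiny neuron markers (-0.20) and ribosomal proteins of the large subunit (-0.16) on the low side. Of the small lists, interferon response genes (0.22) are also high. Y-linked genes (-0.54), choroid plexus, ependyma and meninges (-0.36) and globins (-0.32) are also low.

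Proteins of the ribosome had mostly small negative changes. Of 33 transcripts for the small subunit 32 were below 0, with a median of -0.13, and of 44 for the large subunit 44 were, with a median of -0.16. In 11 of the 33 and 19 of the 44, each GS/DA library was below both control libraries (12.3% of all transcripts), and in 11 and 17 also below the further library (8.8%). The medians were -0.06 and -0.06 in the shallower and -0.20 and -0.19 in the deeper pair, and -0.052 and -0.087 without the deeper control library. Rps19 had 1819 and 2005 normalised footprints in the control libraries, 1924 in the further library, and 1549 and 1564 in the GS/DA libraries, a change of -0.30 without overlap. Rps4x, listed as a pair of transcripts, held the 1 small-subunit value above 0 (0.22), beside -0.16 for its other transcript.

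Tubulins were all on the other side of 0, 13 of 13, with a median of 0.18. Both GS/DA libraries were above both control libraries for 10 (12.1% of all transcripts) and above the further library as well for 7 (8.9%). Against all 3 other libraries 11 of 13 had a change above 0. Tuba1a, an alpha tubulin of neurons, had 46036 and 46504 normalised footprints in the control libraries, 47749 in the further library, and 51715 and 51868 in the GS/DA libraries, a change of 0.16. Tubb2a, a beta tubulin, had 15829 and 15695 in the control, 17689 in the further, and 18924 and 18670.4 in the GS/DA libraries, a change of 0.25. Both were apart from the other 3 libraries by a small step. In GS the median of the tubulins was 0.06.

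The change was slightly higher for longer coding sequences across transcripts, with a Spearman correlation of 0.184 over the 97.1% of transcripts with a length. Over 5 groups of equal size the median was -0.04 in that of the shortest and 0.03 in that of the longest. The correlation was 0.077 in the shallower and 0.213 in the deeper pair. With GC content it was 0.155 over the deposited means, 0.179 in the shallower and 0.075 in the deeper pair. With the predicted folding energy of the 5′UTR it was -0.051, and -0.018 and -0.061 in these pairs. With mean footprints it was 0.017, and -0.0098 and 0.041 in the pairs, a change of sign. Autosomes and the X chromosome had medians between -0.03 and 0.00. Transcripts are not independent replicates, and these values only describe the table.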

How the data were processed

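The authors aligned footprint reads to mm9 with TopHat2 2.0.11 and Bowtie2 2.2.2, counted those in coding sequences, dropped transcripts with few reads and normalised with DESeq 1.20. The deposited signal values are means of normalised footprints over the libraries of a group, without SD. Other deposited values, the energies (kcal/mol) that the authors took for predicted 5′UTR folds, entered 1 correlation.

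The change of each transcript is the log2 ratio of deposited means, with no pseudocount. Reads of single libraries were recovered by searching for size factors under which a mean is a sum of whole, scaled read numbers; the search was tested on simulated data, and the further library was found after the data were seen. Recovered values were compared with limma 3.58.1 (R 4.3.3) on log2 of normalised footprints plus 10, with a trend and a Benjamini-Hochberg threshold of 0.05 over 8570 transcripts, two-sided. Other steps used Python 3.11.15, numpy 2.4.6, pandas 2.3.3, sympy 1.14.0 and matplotlib 3.10.9.

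Members and gene lists were chosen with earlier results of these data known. Named genes include Lrrk2, the 15 highest and 15 lowest changes among transcripts with both means of at least 500, and list members. Of the list members, some were the highest, the lowest or past 0.5, and others were named without a fixed rule. Genes near Lrrk2 were named as well, as were Ddit4l and Gh. Symbols altered to dates were left out. Tables were normalised separately, so levels are not compared between them. Alternatives covered pseudocounts, low values, scaling, duplicated symbols, the mean, a replicate block and each library left out.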

Additional observations from a re-analysis of the deposited data

How the results depend on the processing

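Over 44 gene lists, 364 of 522 medians under an alternative moved by less than the SD between the medians of both matched pairs. Where no library was left out, 302 of 346 did so. For 30 named genes 270 of 358 changes moved by less than the SD between the changes in both matched pairs, and 227 of 238 where no library was left out. That limit is small where both pairs happen to be close, and it is not the SD between libraries. Pseudocounts, scaling, duplicated symbols and log means left the counts of 42 and 28 within 1.5 times.

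Low values mattered. Under the looser of both limits on low means the count of higher transcripts was 24 and the SD of the change 0.137. Under the stricter limit the counts were 10 higher and 12 lower, the SD 0.127, the cortical median 0.13, and the unadjusted count 77. The SD between libraries was then 0.366 in control and 0.378 in GS/DA; without transcripts that differ by 1.5 or more between libraries, an alternative added after seeing the data, it was 0.250 and 0.266. Fewer transcripts are kept in each case.

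With the replicate block, which pairs libraries by a difference found in the data and not by their labels, limma called 196 transcripts, 1356 had an unadjusted p under 0.05, and the adjusted p of Lrrk2 was 3.43e-07. The further library among the controls, added after seeing the data, gave 1 and 312, an adjusted p of 0.0409 and an immediate early median of -0.44. With the block as well it gave 39 and 1069, and 3.18e-05. Since the pairing was chosen by likeness, these calls are no independent test.

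Leaving out 1 library at a time leaves an arm with a lone library, which is assumed to vary like the others. The count of higher transcripts then ranged from 44 to 137 and of lower ones from 66 to 116, the SD of the change from 0.210 to 0.305, and limma's calls from 2 to 45, with 177 to 331 at an unadjusted p under 0.05. The Lrrk2 change ranged from 1.84 to 2.44 and its adjusted p from 5.06e-23 to 4.18e-05. The cortical median ranged from 0.35 to 0.78 and the shared spiny neuron median from -0.31 to -0.073. Serpini1 ranged from -0.055 to 0.91 and Ttr from -3.005 to 1.40, each with a change of sign when 1 library was left out. That also unmatches the libraries by depth, and Serpini1 was positive in both matched pairs. The cause was not tested.

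With 2 libraries a group, the spread of a single gene is known poorly, and 6 mostly abundant transcripts have no value per library.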

Other observations

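Genes of the interferon response that were listed, 5 of 18, were all slightly higher in GS/DA, with a median change of 0.22 against -0.01 over all transcripts. H2-K1, a class I histocompatibility protein, had 205 and 233 normalised footprints in the control libraries, 242 in the further library, and 309.9 and 264 in the GS/DA libraries, a change of 0.39. The groups were apart by a small step. With 1 library left out the list's median ranged from 0.11, without the shallower control library, to 0.43, without the deeper one. Ifit1, Irf7 and Isg15 were not listed.

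Astrocyte markers, 23 of 23 listed, had a median of 0.09 with 19 above 0, and microglia markers, 11 of 18, one of 0.08 with 10 above 0. Gfap, the intermediate filament of astrocytes, was at 0.25, and Cx3cr1, the fractalkine receptor of microglia, at 0.23. Oligodendrocyte markers, 22 of 25, had a median of 0.03, while Opalin, a myelin protein, was low at 457 and 434 normalised footprints in the control, 466 in the further, and 325 and 306 in the GS/DA libraries (change -0.50). In GS its change was 0.15. Globins, 3 of 8 and a mark of blood, had a median of -0.32. These medians depended on the library left out: without the shallower GS/DA library they were 0.029 for astrocytes, 0.26 for microglia, -0.16 for oligodendrocytes and -0.015 for globins, and without the deeper one 0.13, -0.12, 0.12 and -0.74.

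Of the markers of choroid plexus, ependyma and meninges 4 of 24 were listed, with a median of -0.36, which was 0.11 without the shallower and -0.67 without the deeper control library. Their summed level was 21387 and 5108 normalised footprints in the control libraries, 4399 in the further library, and 5366 and 9111 in the GS/DA libraries, and Ttr was the most abundant gene. Clic6, a chloride channel protein, had 556 and 296 in the control, 338 in the further, and 304 and 364 in the GS/DA libraries. As with Ttr, the shallower control library was the highest. Enpp2, a secreted lysophospholipase counted with the oligodendrocytes that choroid plexus makes too, followed with 8465 and 3830.5 in the control, 3507 in the further, and 4055 and 5459 in the GS/DA libraries.

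Genes of synaptic vesicles and release, 30 transcripts, had a median of 0.06 (0.14 without the shallower control and 0.028 without the shallower GS/DA library), and 21 were above 0. Syp, an integral vesicle protein, had 8227 and 9047 normalised footprints in the control libraries, 8425 in the further library, and 10210.0 and 11231 in the GS/DA libraries, a change of 0.31. Pclo, a scaffold of the active zone, was at 0.36 with overlap. Transcripts for mitochondrial ribosomal proteins, 63 in number, had a median of -0.06 (-0.15 without the shallower and 0.022 without the deeper control library), and Mrpl55 was the lowest at -0.51. Atf4, the central factor of the integrated stress response, had a change of -0.31 with overlapping groups, and the median of that list was 0.03, or 0.069 without the shallower control library and -0.0075 without the deeper one. The lists not described had medians between -0.10 (vascular cells) and 0.12 (oligodendrocyte precursors). With 1 library left out, some of them went beyond this range. Ionotropic glutamate receptors were at -0.24 without the shallower GS/DA library, and neural adhesion and axon guidance genes at 0.19 without the shallower control library. Vascular cells were at -0.17 without the shallower and 0.13 without the deeper GS/DA library, and oligodendrocyte precursors at 0.044 without the shallower one.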
